A study of Homo sapiens with 12 samples.

Results

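A set of 10 genes of bone morphogenetic protein (BMP) and transforming growth factor beta (TGF-beta) signalling were followed in Caco-2, a cell line from a human colorectal cancer. They are the ligand gene BMP4, the receptor genes TGFBR2 and AMHR2, the pseudoreceptor gene BAMBI, the signal transducer gene SMAD9, the inhibitory SMAD genes SMAD6 and SMAD7, and the target genes ID1, ID2 and ID3. They were chosen by symbol, with earlier results of these data known. Every bead-array probe annotated to 1 of the 10 symbols was used. This gave 16 probes among the 47314 on the array. Detection needed a detection p-value below 0.05 on 3 or more of the 12 arrays. By that rule 14 probes of 9 genes were detected, of 22417 probes and 12566 genes in all, and SMAD9 was not. AMHR2 passed this filter only through doxycycline-treated arrays, and ID3 with exactly 3 arrays, the minimum.

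The study placed 12 RNA samples of Caco-2 cells on Illumina bead arrays, with 3 arrays in each of 4 groups. In the shRNA-labelled line, a short hairpin RNA aimed at LRH-1, a nuclear receptor that is the product of NR5A2, was to be switched on by doxycycline, and the design names more than 1 hairpin sequence without saying which an array carried. The control line is called native in the sample titles and a non-silencing vector control in another label, and each line was harvested with or without doxycycline at 5 µg/ml for 96 h. Whether replicates came from separate cultures is not stated, and p-values therefore measure only the scatter among these samples, possibly technical. All arrays shared a single chip, median intensities ran from 251 to 386, and 41.2% to 44.7% of probes were detected on an array.

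NR5A2, the target of the hairpin, did not fall with doxycycline. Its normalised log2 level rose from 10.17 ± 0.07 to 10.67 ± 0.14 in the shRNA-labelled line (SD, n = 3 each; limma adjusted p = 0.00995, and 0.254 with median scaling) and from 10.16 ± 0.09 to 11.05 ± 0.11 in the control line (adjusted p = 0.000384). With doxycycline it was lower in the shRNA-labelled line than in the control line by a log2 difference of -0.38 (SE 0.10, adjusted p = 0.0216), a call lost without control doxycycline array 1 (adjusted p = 0.0819) or shRNA-labelled doxycycline array 1 or 2 (0.0816 and 0.0741), with median scaling (0.169) or with the treated groups fitted alone (0.0657). No comparison is therefore given a direction relative to loss of LRH-1, and the line is called by its label throughout. Epithelial markers were present: 7 of 9 listed genes were detected, with summed linear levels of 111213 to 120081 over all arrays, while CDX1 was not detected and HNF4A had no probe with its symbol alone. Bright probes weigh most in that sum, so it can hide changes of dimmer ones. KRT18, a dim one, was the only epithelial marker with called differences, given below.

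BMP and TGF-beta ligands bind pairs of serine/threonine kinase receptors at the cell surface, and the active receptors phosphorylate SMAD proteins, which enter the nucleus with SMAD4 and change transcription. BMP signals run mainly through SMAD1, SMAD5 and SMAD9 and switch on ID1, ID2 and ID3, whose products block basic helix-loop-helix factors. The same signals switch on the inhibitors SMAD6, SMAD7 and BAMBI, so many of these genes are both parts and readouts of the pathway. In the intestine, BMP signals favour differentiation, and TGF-beta signals restrain epithelial growth.

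The promoters of the 3 genes with a called difference on their gene-level probe are shown, from 250 bases before to 50 after the RefSeq start of the gene (GRCh38.p14), because BMP4 and BAMBI hold SMAD elements and AMHR2 holds none of those searched. Capitals mark GTCTG or its other strand CAGAC, and the GC-rich element GGCGCC, both searched on both strands. BMP4 lies at chr14:53955001-53955300 on the minus strand, BAMBI at chr10:28677271-28677570 on the plus strand, and AMHR2 at chr12:53423605-53423904 on the plus strand.
BMP4: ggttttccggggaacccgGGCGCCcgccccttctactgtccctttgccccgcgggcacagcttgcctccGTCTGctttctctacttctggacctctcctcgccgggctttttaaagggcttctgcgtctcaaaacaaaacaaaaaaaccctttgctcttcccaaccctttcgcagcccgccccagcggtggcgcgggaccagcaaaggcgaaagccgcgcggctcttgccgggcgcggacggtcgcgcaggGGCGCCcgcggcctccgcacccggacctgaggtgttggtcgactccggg
BAMBI: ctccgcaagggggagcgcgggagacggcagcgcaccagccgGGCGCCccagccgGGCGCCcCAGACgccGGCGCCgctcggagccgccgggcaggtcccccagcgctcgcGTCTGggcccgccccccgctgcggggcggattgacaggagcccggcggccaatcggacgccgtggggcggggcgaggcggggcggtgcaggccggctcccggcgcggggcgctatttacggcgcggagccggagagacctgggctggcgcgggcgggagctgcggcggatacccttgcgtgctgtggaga
AMHR2: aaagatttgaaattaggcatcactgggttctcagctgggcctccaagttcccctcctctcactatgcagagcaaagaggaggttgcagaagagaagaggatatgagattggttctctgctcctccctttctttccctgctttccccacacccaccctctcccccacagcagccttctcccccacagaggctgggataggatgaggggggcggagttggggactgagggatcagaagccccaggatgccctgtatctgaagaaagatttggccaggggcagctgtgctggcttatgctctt

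The palindrome GTCTAGAC, a strong SMAD-binding element, was searched too, and was found in SMAD6 alone of the 10 members. Its surroundings at chr15:66702204-66702251 on the plus strand follow, with the palindrome in capitals.
SMAD6: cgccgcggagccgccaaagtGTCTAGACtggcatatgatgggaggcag

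These matches describe letters and not binding. The palindrome stood in 0.202% of all 35116 RefSeq windows of that length and in 1 of 10 members. GTCTG stood in 45.3% of windows and in 5 members (SMAD7, SMAD9, ID3, BMP4 and BAMBI), so it did not set the members apart. GGCGCC stood in 19.2% of windows and in 2 members, with 2 matches in BMP4 and 3 in BAMBI. CAAGGTCA, a form of the element LRH-1 binds, stood in 1.28% of windows and in none of the 10 members' windows. The BAMBI window was 80% G or C and the BMP4 window 66%, against a median of 58.7% over all windows and 55% for AMHR2.

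Values below are background-corrected, quantile-normalised log2 intensities, called levels. A level is compared between arrays for the same probe and never between genes. Differences are log2 differences from a limma fit of all 12 arrays and all 12566 genes, with Benjamini-Hochberg adjustment over all genes and a threshold of 0.05.

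With doxycycline, AMHR2 rose in both lines, though it had passed the detection filter only through treated arrays. No other detected member passed the test on its gene-level probe, while a second probe of ID2 fell in the shRNA-labelled line. Against the control line, BAMBI was lower in the shRNA-labelled line without doxycycline, and BAMBI, BMP4 and AMHR2 were lower with it. The second ID2 probe was higher in the untreated shRNA-labelled line than in the untreated control line, by 0.73 (limma adjusted p = 0.000846). The counts that follow are for gene-level probes. They only describe the list, since its members were chosen with earlier results of these data known. In the shRNA-labelled line 1 of 9 members rose with doxycycline and 0 fell, where 6.49% of all genes rose and 5.01% fell. In the control line it was again 1 higher and 0 lower, against 7.88% and 8.11% of all genes. Between lines without doxycycline 0 members were higher and 1 lower, against 7.46% and 8.87%. With doxycycline 0 were higher and 3 lower, against 10.9% and 11.8%. The response to doxycycline differed between the lines for none of the 9 members by limma (0 calls, with 0.462% of genes called higher and 0.382% lower, where 3 of 9 members and 1999 of 12566 genes had an unadjusted p under 0.05). A count of 1 of 9 is close to these backgrounds. Without treated control array 1 the count was 3 in each line, with BMP4 and SMAD7 added to AMHR2.

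The median log2 response of the 9 members to doxycycline was -0.04 in shRNA-labelled and -0.01 in control cells, against -0.02 and -0.01 for all genes. Between treated lines the members' median was -0.27 and that of all genes was near 0. The response to doxycycline had the same sign in both lines for 5 members and opposite signs for 4. In each of the 4 comparisons of 2 groups, the 3 arrays of a group did not overlap those of the other for 4 of 9 members. Among all genes the share without overlap was 30.5% and 33.7% with doxycycline in the shRNA-labelled and control lines, and 35.4% and 39.4% between untreated and treated lines, so 4 of 9 is near that background. An exact permutation test of 3 against 3 arrays cannot go below p = 0.1, two-sided.

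**Figure D1:**
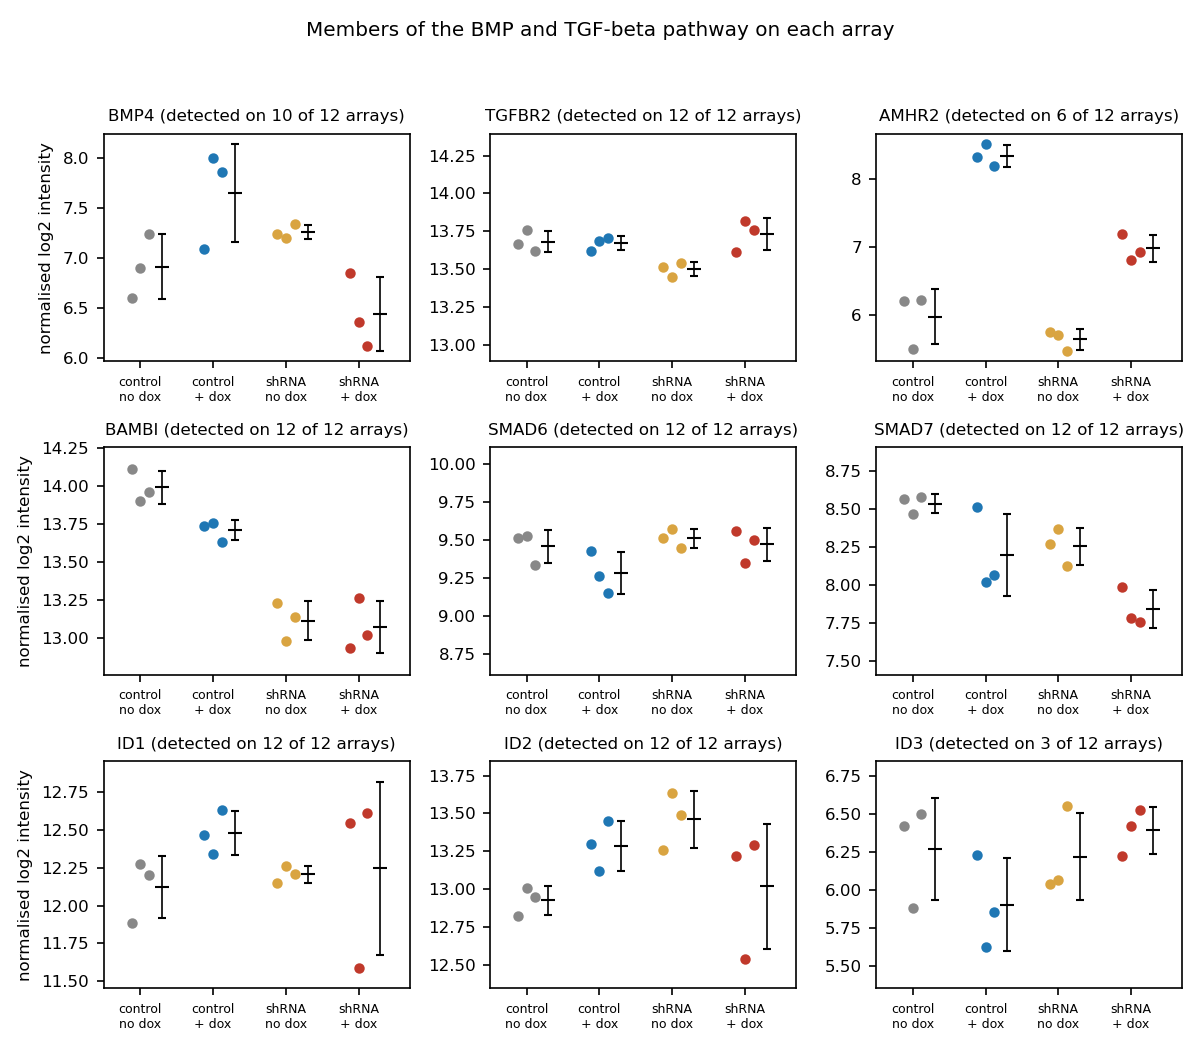
Normalised log2 intensity (y axis) of the 9 detected members on each array, with 3 arrays in each of 4 groups (x axis). Points are arrays, and the bars beside them give the mean and SD. Each panel has its own range. AMHR2 stands between 8.18 and 8.51 on the treated control arrays, above every other group, and BAMBI at or under 13.26 on all 6 arrays of the shRNA-labelled line.

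BMP4 encodes a secreted BMP ligand. Its levels were 6.60, 6.90 and 7.24 in the control line without doxycycline and 7.09, 7.99 and 7.86 with it. The shRNA-labelled line had 7.24, 7.20 and 7.34 without doxycycline and 6.85, 6.36 and 6.12 with it. The treated shRNA-labelled arrays were thus the lowest as a group, all below the 3 untreated arrays of their line and all below the treated control arrays. In order, the group means were 6.44 ± 0.37, 6.91 ± 0.32, 7.26 ± 0.07 and 7.65 ± 0.49 (SD, n = 3 each) for treated shRNA-labelled, untreated control, untreated shRNA-labelled and treated control cells. Neighbours in that order overlapped.

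With doxycycline, BMP4 was lower in the shRNA-labelled line by a log2 difference of -1.21 (SE 0.25, 95% interval -1.75 to -0.67, limma adjusted p = 0.00447). No fold is given, since only 1 of the 3 treated shRNA-labelled arrays was above background for this probe. Without background correction that difference was -0.44 (adjusted p = 0.00416). The response to doxycycline was -0.82 in the shRNA-labelled line (interval -1.36 to -0.28, adjusted p = 0.0541) and 0.74 in the control line (interval 0.20 to 1.28, adjusted p = 0.0658). Neither passed the threshold, nor did their difference of -1.55 (interval -2.32 to -0.79, adjusted p = 0.0630). Leaving out treated control array 1 brought all 3 past it (adjusted p = 0.0231, 0.0131 and 0.0413). The shRNA-labelled response also passed without treated array 1 of that line (adjusted p = 0.0359) or untreated control array 3 (0.0495), and the control response without the latter (0.0427). The probe was detected on 10 of 12 arrays.

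TGFBR2 encodes the type II receptor for TGF-beta, and 3 probes measured it. On its gene-level probe the levels ran from 13.62 to 13.76 in the untreated control line, 13.62 to 13.71 in the treated control line, 13.45 to 13.54 in the untreated shRNA-labelled line and 13.62 to 13.82 in the treated one. The untreated shRNA-labelled arrays were the lowest and did not overlap another group. No comparison passed the threshold: the response was 0.23 in the shRNA-labelled line (interval 0.04 to 0.42, adjusted p = 0.126) and -0.01 in the control line (interval -0.21 to 0.18, adjusted p = 0.954). The second bright probe gave 0.38 (adjusted p = 0.10) and -0.12 (0.618). The third probe was detected on 5 of 12 arrays, all in the shRNA-labelled line, and on none of the control line. Between untreated lines it was at least 1.12-fold higher in the shRNA-labelled line (adjusted p = 0.0855), while the bright probes gave log2 differences of -0.18 and -0.38. None of the 3 passed.

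AMHR2 encodes the type II receptor for anti-Müllerian hormone, a TGF-beta family ligand best known from the gonads. Its levels were 6.21, 5.51 and 6.23 in the untreated control line and 8.32, 8.51 and 8.18 in the treated one. Values for the shRNA-labelled line were 5.76, 5.71 and 5.48 without doxycycline and 7.20, 6.82 and 6.93 with it. The probe was detected on all 6 treated arrays and on none of the 6 untreated arrays. The treated control arrays were highest, the treated shRNA-labelled arrays next, and the untreated groups overlapped.

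Because the untreated groups were not above background, the rise is a bound, taken against the dimmest detected signal on each array. It was at least 3.65-fold in the control line (fitted log2 difference 2.36, SE 0.19, limma adjusted p = 4.73e-05) and at least 1.47-fold in the shRNA-labelled line (fitted 1.33, SE 0.19, adjusted p = 0.00105). AMHR2 passed the detection filter only through its treated arrays, so the filter and these 2 p-values are not independent. Among treated arrays, where every value was detected, the shRNA-labelled line was lower by a log2 difference of -1.36 (interval -1.76 to -0.95, adjusted p = 0.00039), a 2.56-fold difference. The difference of the responses was -1.02 (interval -1.60 to -0.44, adjusted p = 0.0945) and did not pass. The difference between untreated lines rests on arrays at background and has no fold. Without background correction the fitted differences shrank to 0.92, 0.44 and -0.60, and all 3 kept their calls.

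AMH, the hormone AMHR2 binds, was detected on all 12 arrays and passed the test with doxycycline in neither line. It was higher in the treated shRNA-labelled line than in the treated control line, by a log2 difference of 0.79 (SE 0.20, adjusted p = 0.0137), the opposite sign to AMHR2. Markers of several cell types also changed with doxycycline. Of 7 tested epithelial markers, KRT18 alone was called, higher by 1.13 in the control line (adjusted p = 0.00504). It gave 0.52 in the shRNA-labelled line (adjusted p = 0.154). The monocyte marker CD14 fell, with log2 differences of -0.68 and -0.64 in the control and shRNA-labelled lines (adjusted p = 0.00259 and 0.00432). Some fibroblast markers rose. Of 8 listed fibroblast genes, 5 were detected (COL1A2, COL3A1 and THY1 were not). LUM, PDGFRA and PDGFRB rose in the control line and PDGFRA and PDGFRB in the shRNA-labelled line. COL1A1 had differences of 0.58 and -0.59 in the control and shRNA-labelled lines, and DCN of 0.02 and -0.04, none past the threshold. In the control line their summed linear level lay between 3627 and 3997 without doxycycline and between 5876 and 6908 with it. The shRNA-labelled line lay between 3586 and 3927 without it and between 5105 and 5766 with it, so the treated control arrays had the highest sums. The part of these markers in the AMHR2 result was not tested. In bulk RNA, fewer cells of a type and less RNA per cell cannot be told apart.

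BAMBI encodes a membrane protein that resembles a type I receptor but lacks the kinase, and it damps TGF-beta and BMP signals. Its levels were 14.11, 13.90 and 13.96 in the untreated control line and 13.74, 13.75 and 13.63 in the treated one. The shRNA-labelled line gave 13.22, 12.98 and 13.14 without doxycycline and 12.93, 13.26 and 13.02 with it. All 6 arrays of the shRNA-labelled line lay below all 6 of the control line, with or without doxycycline, and the 2 groups of the shRNA-labelled line overlapped.

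BAMBI was lower in the shRNA-labelled line by a log2 difference of -0.88 without doxycycline (SE 0.11, interval -1.12 to -0.63, limma adjusted p = 0.00045), a 1.84-fold difference. With doxycycline it was -0.64 (SE 0.11, interval -0.89 to -0.39, adjusted p = 0.00178), or 1.56-fold. Neither line had received doxycycline in the untreated comparison, so that difference lies between the lines. Causes of a difference between the lines cannot be told apart in this design. The response was -0.28 in the control line (adjusted p = 0.114) and -0.04 in the shRNA-labelled line (interval -0.29 to 0.20, adjusted p = 0.859). The difference of the responses was 0.24 (interval -0.11 to 0.59, adjusted p = 0.508). Between the untreated lines the fibroblast markers PDGFRA and COL1A1 were higher in the shRNA-labelled line. The differences were 1.82 and 0.96 (adjusted p = 4.01e-05 and 0.0110). LUM and PDGFRB went the other way, by -0.52 and -0.40, and DCN differed by 0.12, none past the threshold. Summed fibroblast levels overlapped, at 3627 to 3997 in the untreated control line and 3586 to 3927 in the untreated shRNA-labelled line. CD14, a monocyte marker, was lower in the untreated shRNA-labelled line, with a log2 difference of -0.38 (adjusted p = 0.0426). The epithelial marker KRT18 was higher there by 0.76 (adjusted p = 0.0335), the only call among 7 tested epithelial markers. The part of these markers in the BAMBI result was not tested.

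**Figure D2:**
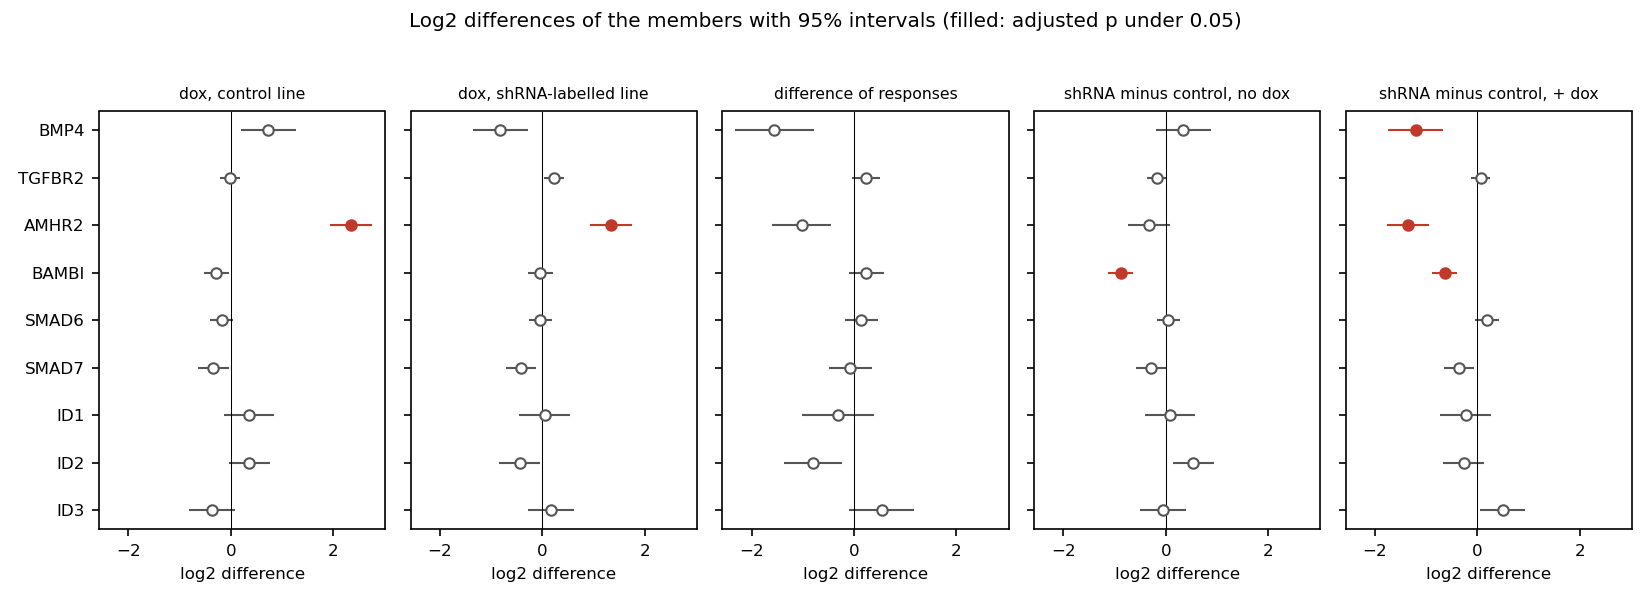
Log2 difference (x axis) of the 9 detected members (y axis) in the 5 comparisons, with 95% intervals from the limma fit of 12 arrays. Filled symbols passed the adjusted threshold of 0.05. AMHR2 passed in 3 panels, BAMBI in 2 and BMP4 in 1, and no member passed in the difference of responses.

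SMAD9, a BMP-activated transducer, was not detected. Of its probes, 1 was above background on no array and the other on 2 of 12, both in the untreated control line, where its levels were 6.83, 6.91 and 6.24. Of the other receptor-regulated and common SMADs listed, 4 of 5 were tested, and SMAD5 alone passed, higher in the treated shRNA-labelled line than in the treated control line by 0.41 (adjusted p = 0.00732).

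SMAD6, the inhibitor that acts mainly on BMP signals, had levels of 9.51, 9.52 and 9.33 in the untreated control line and 9.43, 9.26 and 9.15 in the treated one. The corresponding levels of the shRNA-labelled line were 9.51, 9.57 and 9.45 without doxycycline and 9.56, 9.35 and 9.50 with it. The groups overlapped in every comparison. The response was -0.04 (interval -0.27 to 0.19) in the shRNA-labelled line and -0.18 (interval -0.41 to 0.05) in the control line, with limma adjusted p of 0.867 and 0.290.

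SMAD7, which inhibits TGF-beta and BMP signals alike, had levels of 8.57, 8.47 and 8.58 in the untreated control line and 8.51, 8.02 and 8.07 in the treated one. In the shRNA-labelled line they were 8.27, 8.37 and 8.13 without doxycycline and 7.99, 7.78 and 7.75 with it. All 3 treated shRNA-labelled arrays lay below the untreated ones of their line, whereas treated control array 1 lay within the untreated range. The response was -0.41 in the shRNA-labelled line (interval -0.71 to -0.12, limma adjusted p = 0.0721) and -0.34 in the control line (interval -0.63 to -0.04, adjusted p = 0.116). Neither passed, but both did without treated control array 1 (adjusted p = 0.0279 and 0.0182). The second SMAD7 probe gave -0.31 and -0.44 with wider spread (adjusted p = 0.575 and 0.337).

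ID1, ID2 and ID3 encode inhibitors of basic helix-loop-helix factors and are standard readouts of BMP signalling. ID1 levels were 11.89, 12.28 and 12.20 in the untreated control line and 12.46, 12.34 and 12.63 in the treated one. On shRNA-labelled arrays they were 12.15, 12.26 and 12.21 without doxycycline and 12.54, 11.59 and 12.61 with it. Treated shRNA-labelled array 2 stood apart, below the other 2 arrays of its group and all arrays of the other groups. No comparison of ID1 passed. The response was 0.04 in the shRNA-labelled line (interval -0.45 to 0.54, limma adjusted p = 0.935) and 0.36 in the control line (interval -0.14 to 0.85, adjusted p = 0.329). Without array 2 the first of these was 0.37 (adjusted p = 0.144), and without array 1 or 3 it was -0.11 or -0.14, so its sign rests on which arrays are kept.

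Array 2 of the treated shRNA-labelled group was also the lowest of its group on the second ID1 probe (7.68, against 8.74 and 9.09) and on the first ID2 probe. On that ID2 probe the levels were 12.82, 13.01 and 12.95 in the untreated control line, 13.30, 13.12 and 13.45 in the treated one, 13.26, 13.63 and 13.49 in the untreated shRNA-labelled line and 13.22, 12.54 and 13.29 in the treated one. The spread within the treated shRNA-labelled group is far wider than in the other groups. ID2 did not pass in any comparison on this probe, including the response of -0.44 in the shRNA-labelled line (adjusted p = 0.152) and the difference of 0.53 between untreated lines (adjusted p = 0.0679). Without that array the response was -0.20 (adjusted p = 0.460), and the difference between untreated lines, which does not use the array, passed (adjusted p = 0.0149).

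The second ID2 probe, nearly as bright, had levels of 12.73, 12.87 and 12.81 in the untreated control line and 13.16, 12.94 and 12.99 in the treated one. In the shRNA-labelled line they were 13.54, 13.51 and 13.55 without doxycycline and 13.16, 13.05 and 13.14 with it. The untreated shRNA-labelled arrays were the highest and the untreated control arrays the lowest, and the treated groups overlapped. In a limma fit over all 22417 detected probes, this probe was higher in the untreated shRNA-labelled line than in the untreated control line by 0.73 (SE 0.10, adjusted p = 0.000846), where 5.26% of probes were called higher. With doxycycline it fell in the shRNA-labelled line, with a log2 difference of -0.41 and an SE of 0.10 (adjusted p = 0.0239), where 3.12% of probes fell.

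That fall was lost when any untreated shRNA-labelled array, or treated array 1 or 2 of the line, was left out (adjusted p from 0.0573 to 0.0917), and with median scaling (0.175). The control response was 0.23 (adjusted p = 0.160), and the difference of the responses was -0.64 (SE 0.14, interval -0.94 to -0.34, adjusted p = 0.0861). Between treated lines the first ID2 probe gave -0.27 and the second 0.09, neither past the threshold. The probes had the same sign in the other 4 comparisons and differed in which calls they made.

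**Figure D3:**
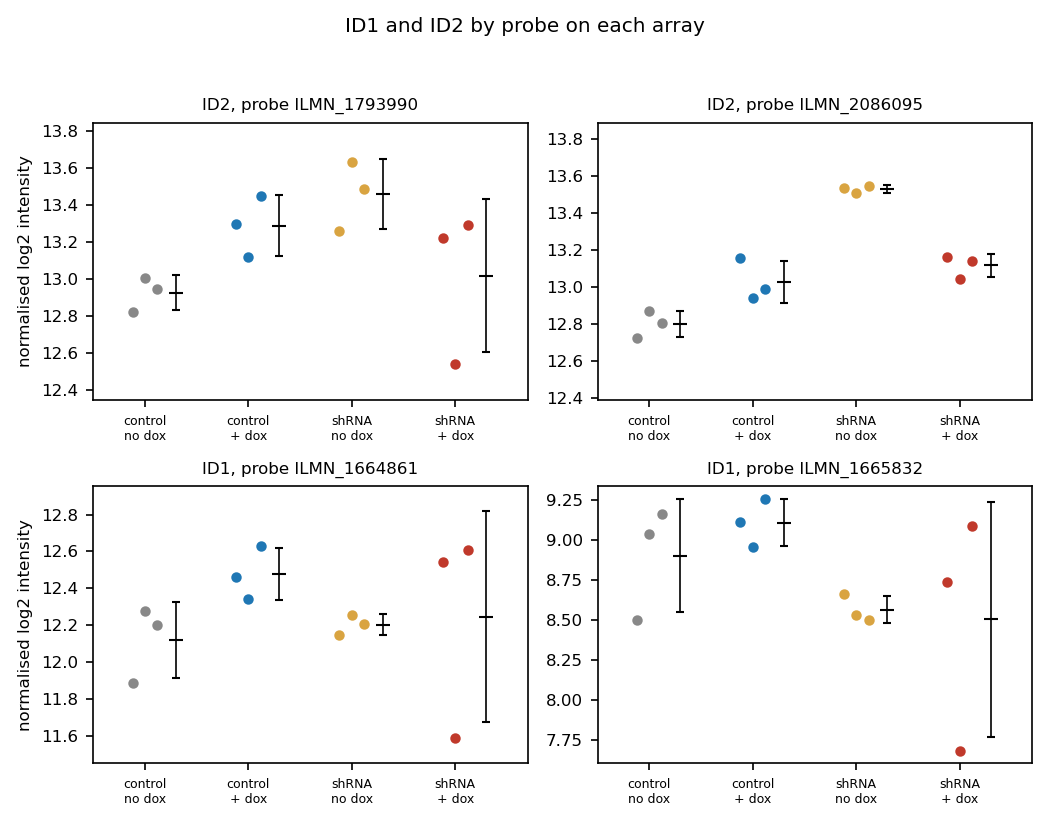
Normalised log2 intensity (y axis) of both ID2 probes and both ID1 probes on each array, with 3 arrays in each of 4 groups (x axis), and the mean and SD beside the points. Array 2 of the treated shRNA-labelled group is low on both ID1 probes and on the first ID2 probe (12.54) but lies at 13.05 on the second ID2 probe, near the other arrays of its group.

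ID3 was at the edge of detection, on 3 of 12 arrays. Its levels ran from 5.88 to 6.50 in the untreated control line, 5.63 to 6.23 in the treated control line, 6.04 to 6.55 in the untreated shRNA-labelled line and 6.23 to 6.53 in the treated one. All groups overlapped and no comparison passed. The lowest adjusted p was 0.108, for the 0.49 between treated lines, and no fold is given at this signal.

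The other genes of the pathway, 111 by list, gave 64 that were tested. These lists too were made with earlier results of these data known. With doxycycline 4 rose and 4 fell in the shRNA-labelled line, and 5 rose and 5 fell in the control line. Between lines 3 were higher and 6 lower without doxycycline, and 6 higher and 8 lower with it. No difference of responses passed by limma for any of the 64. An unadjusted p under 0.05 was found for 12 of the 64, against 1999 of all 12566 genes. Their median response was near 0 in both lines. Set against the shares for all genes, these counts are near the background in each comparison.

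Among ligands, 11 of 29 BMP, GDF and activin genes were tested. INHBE, an activin subunit, fell with doxycycline by 0.91 in the shRNA-labelled line (limma adjusted p = 0.0355) and by 1.85 in the control line (0.000725), and was lower in the untreated shRNA-labelled line by a log2 difference of -1.26 (0.00618). BMP2, a ligand close to BMP4, rose by 0.46 in the control line (adjusted p = 0.0169). INHBB, another activin subunit, was lower in the shRNA-labelled line by a log2 difference of -1.52 without doxycycline (adjusted p = 7.68e-06) and -1.06 with it (5.32e-05), the same direction as BAMBI. INHA, the inhibin alpha subunit, was at least 1.69-fold lower in the untreated shRNA-labelled line (adjusted p = 0.00456), where it was detected on no array. GDF15, a stress-induced member of the family, was lower in that line (-0.40, adjusted p = 0.0394), and BMP8B, a BMP ligand, was lower in the treated shRNA-labelled line than in the treated control line (-0.55, 0.0346). Of 7 TGF-beta ligand and latent-binding genes 4 were tested, and the ligand TGFB3 fell with doxycycline by 0.64 and 0.98 in the shRNA-labelled and control lines (adjusted p = 0.0195 and 0.00161). LTBP4, a latent TGF-beta binding protein, rose by 0.79 in the control line (adjusted p = 0.00712). Between treated lines, TGFB3 was higher in the shRNA-labelled line by 0.59 (adjusted p = 0.0159) and LTBP3, of the same class as LTBP4, was lower (-0.65, 0.0116).

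Of 16 other receptor and co-receptor genes 8 were tested, and 0 passed with doxycycline in either line. The unadjusted limma p was under 0.05 for 0 in the shRNA-labelled and 1 in the control line, against 3215 and 3724 of all 12566 genes. The type I receptor ACVR1 was higher by 0.46 in the treated shRNA-labelled line than in the treated control line (adjusted p = 0.00653). Of 15 secreted antagonists 6 were tested. FSTL3, which binds activin, rose with doxycycline by 1.24 in the shRNA-labelled line (adjusted p = 0.000461) and 1.10 in the control line (0.000899). NBL1, a BMP antagonist, rose by 0.60 in the control line (adjusted p = 0.0212) and was higher in the untreated shRNA-labelled line by 0.82 (0.00445). Between treated lines, the BMP antagonist GREM1 was higher by 0.87 in the shRNA-labelled line (adjusted p = 0.0317), while CHRDL2 and SOSTDC1, of the same class, were lower by -0.72 and -0.85 (0.00253 and 0.0249).

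Inside the cell, 15 of 17 regulators were tested, and 2 had a called difference. PMEPA1, a TGF-beta target that restrains SMAD signalling, rose by 1.32 with doxycycline in the shRNA-labelled line (adjusted p = 0.0219). Its probe was detected on 2 of the 3 untreated arrays of that line, and the rise was as small as 0.53 among the alternatives. TOB1, an antiproliferative protein that binds SMADs, was lower in the untreated shRNA-labelled line (-0.74, adjusted p = 0.00581). Of 19 further target genes 13 were tested. TAGLN, an actin-binding TGF-beta target, rose by 2.28 and 1.36 with doxycycline in the shRNA-labelled and control lines (adjusted p = 0.00014 and 0.00253), and was higher in the treated shRNA-labelled line than in the treated control line by 1.33 (0.00148). TPM1, a tropomyosin, rose by 0.57 in the shRNA-labelled line (adjusted p = 0.0308). CCN2, a matrix-associated TGF-beta target, fell by 0.55 in the shRNA-labelled line (adjusted p = 0.00709), after a higher level in that line than in the control line without doxycycline (0.80, 0.000572), and HEY1 and KLF10 fell by 0.84 and 0.58 in the control line (0.00755 and 0.0346). COL1A1, a collagen chain, was higher in the untreated shRNA-labelled line. The cell cycle inhibitor CDKN2B was lower in the shRNA-labelled line without and with doxycycline (-0.55 and -0.91, adjusted p = 0.0148 and 0.000495), and the homeobox gene MSX1 with it (-0.32, 0.0391). TCF4, a basic helix-loop-helix factor and 1 of 3 tested partners of ID proteins, fell with doxycycline by 1.08 and 0.88 in the shRNA-labelled and control lines (adjusted p = 0.000974 and 0.0027), and was lower in the treated shRNA-labelled line (-0.60, 0.0131). Thus FSTL3, TAGLN and the member AMHR2 rose in both lines, and INHBE, TGFB3 and TCF4 fell in both. Of the 41 calls of pathway genes 19 were lost under at least 1 of 23 alternatives. They are INHBE, TGFB3, PMEPA1 and TPM1 with doxycycline in the shRNA-labelled line, BMP2, NBL1, HEY1 and KLF10 with doxycycline in the control line, GDF15 and CDKN2B between untreated lines, and AMH, BMP8B, TGFB3, ACVR1, SMAD5, GREM1, SOSTDC1, MSX1 and TCF4 between treated lines. The highest adjusted p among these was 0.279, for BMP2.

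**Figure D4:**
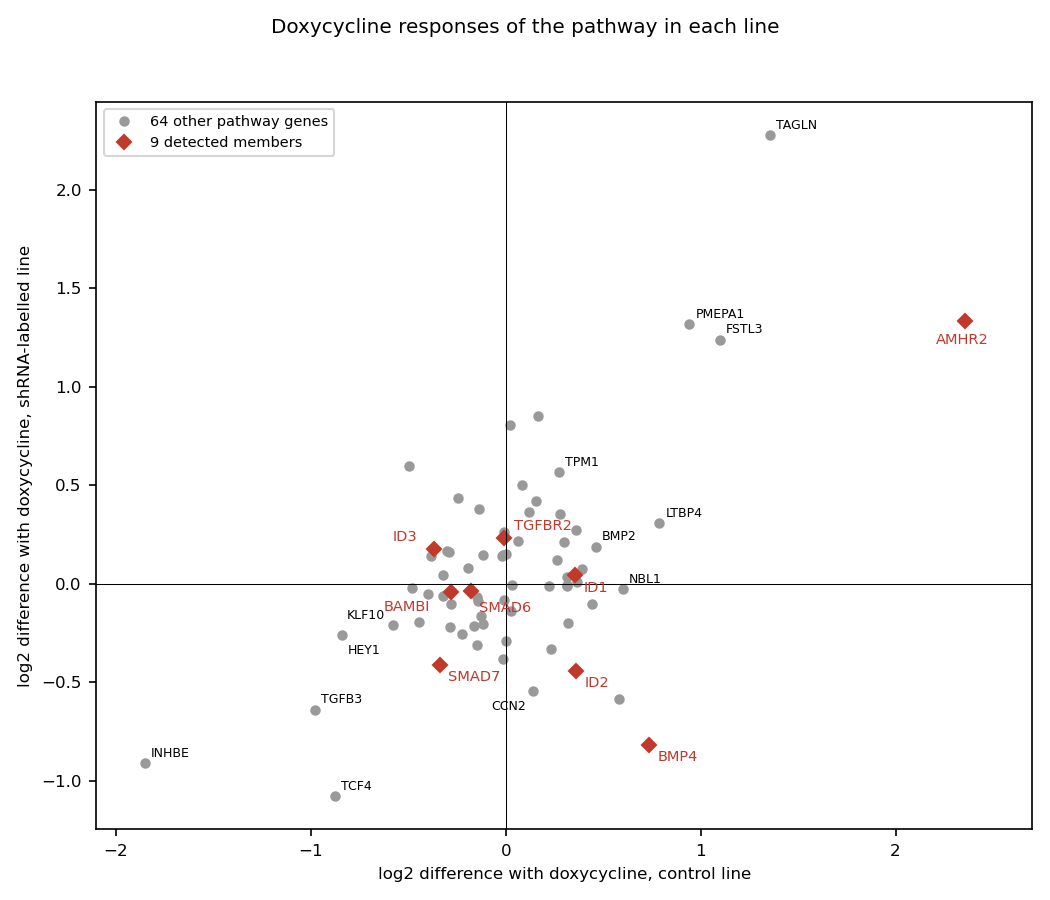
Log2 difference with doxycycline in the control line (x axis) and in the shRNA-labelled line (y axis), with a point for each of 64 other pathway genes and a diamond for each of 9 detected members. Named grey points passed in at least 1 line. AMHR2 lies to the right at 2.36 and 1.33, while BMP4 lies to the lower right, with neither of its responses past the threshold.

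Genes whose 4 group means followed a member most closely were ranked by the root mean square distance of the mean-centred levels over the 4 groups. For BMP4 they were TMEM86B at a distance of 0.0227 and MICA at 0.0566. For BAMBI they were HYOU1 at 0.013 and ASS1 at 0.0345. For AMHR2 they were LTB at 0.0987 and TESC at 0.248. With 4 means to match among 12566 genes, near matches say nothing of shared control.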

How the data were processed

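The deposited table holds probe intensity and a detection p-value for each of 12 arrays, not normalised, per the file headers; the arrays were read in GenomeStudio and lumi was used, per the submitters' processing notes, with versions not given in the sources used here. The authors' deposited value table holds log2 values, used only as an alternative. Intensities were background-corrected with limma 3.58.1 in R 4.3.3 (normexp from the detection p-values, offset 16), log2-transformed and quantile-normalised. Probes with detection p under 0.05 on at least 3 arrays were kept, and the brightest stood for its gene. Of 47314 probes, 30109 carry 1 symbol in the platform annotation, 8 several and 17197 none; 30070 symbols matched RefSeq. A means model of 4 groups on all 12 arrays gave 5 contrasts, tested with limma and adjusted by Benjamini-Hochberg over all genes. Further probes were tested in a fit over all kept probes. Genes named outside the members are those of the pathway lists with an adjusted p under 0.05, up to 4 per list and comparison, and the 2 genes closest in pattern to each called member. No 2 arrays held identical values, and replicate arrays correlated at 0.987 to 0.993. Tested on simulated data for doxycycline in the shRNA-labelled line (12566 genes), the fit recovered 78% of 100 genes changed by 1 on the log2 scale and 98% of 100 changed by 2, with 15 false calls. The members and lists were chosen with earlier results of these data known. The number of arrays limits the precision. Alternatives covered background, scaling, filter, probe choice, fitted groups, replicate number, array weights, variance and each array left out.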

Additional observations from a re-analysis of the deposited data

How the results depend on the processing

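On their gene-level probes the members had 6 called differences. They are AMHR2 with doxycycline in each line and between treated lines, BAMBI between lines with and without doxycycline, and BMP4 between treated lines. All 6 kept their direction and their call under all 23 alternatives each. Gene-level probes gave 1030 alternatives of member differences, NR5A2 not counted. Of these, 973 kept sign and side of the threshold, 0 lost a call and 29 gained one. The remaining 28 changed sign without being called under any setting. On the second ID2 probe, the fall with doxycycline in the shRNA-labelled line kept its call in 13 of 19 alternatives. The difference between untreated lines on that probe kept its call in all 19.

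The number of members called with doxycycline in the shRNA-labelled line was 1, and 2 with median scaling, detection on all 3 arrays of a group, the mean of all kept probes, the compared groups alone, array weights, or trended and robust variance (1 to 3 with an array left out). In the control line it was 1, and 2 with offset 50, array weights or trended and robust variance (1 to 3). For the difference of responses it was 0, with 2 at offset 50 (AMHR2 and BMP4) and 1 with median scaling, array weights or trended and robust variance (0 to 1). Between untreated lines it was 1, and 2 without background correction, with the mean of all kept probes, the compared groups alone, array weights or trended and robust variance (1 to 2). Between treated lines it was 3 throughout.

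Genes called with doxycycline in the shRNA-labelled line went from 1445 to 787 with median scaling, 958 with the compared groups alone and 2698 with array weights (781 to 1547 with an array left out). In the control line 2009 became 1027 with median scaling (1188 to 2091). For the difference of responses 106 became 318 without background correction, 168 at offset 50, 57 with median scaling, 170 with detection on all 3 arrays, 43 with no detection filter, 527 with array weights and 299 with trended and robust variance (15 to 206). Between untreated lines 2052 became 985 with median scaling and 3370 with array weights (1136 to 2165). Between treated lines 2846 became 1671 with median scaling (2099 to 2912). The cause was not tested, except that fewer samples or another number of genes tested is part of the alternative. Single arrays moved the count of genes called by over 1.5 times: for doxycycline in the shRNA-labelled line, untreated array 3 (781 without it) and treated arrays 1 and 2 (922 and 789) of that line; in the control line, untreated array 1 (1188) and treated array 3 (1265); between untreated lines, control array 1 (1136) and shRNA-labelled arrays 1 and 3 (1249 and 1303); and for the difference of responses every array but control untreated 3 and control treated 2.

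Whether the replicate numbers pair the samples was not settled, and the main fit did not use them. Of 18 pairs of same-numbered arrays 6 had deviations correlated above 0.1 (range -0.19 to 0.23). Of 12 arrays 7 correlated best with an array of their own number, and no chance level was worked out for these counts. With the replicate block, members called numbered 1, 1, 0, 1 and 3 in the 5 comparisons, and genes called 1345, 1946, 84, 1970 and 2834. For the pathway genes, 89 of 943 alternatives over 41 called differences lost the call, and none changed sign. Low signal limits AMHR2, BMP4, ID3 and SMAD9 most among the members, since differences near background depend on its correction. Of the pathway genes with a call, INHA, INHBE, PMEPA1 and HEY1 were not detected on some arrays, and the same limit holds for them.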
